A study of Homo sapiens with 8 samples.

Results

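The 10 genes described here encode proteins that move calcium across cell membranes or sense it there: the pumps ATP2A2, ATP2A3, ATP2B1 and ATP2C1, the store release channels ITPR1 and ITPR3, the store sensors STIM1 and STIM2, and the entry channels ORAI1 and TRPV6. They were taken by gene name as 10 of the 36474 genes in the count table, and all 10 were among the 21071 genes that passed the filter on low counts. LNCaP is an established androgen-responsive line derived from a metastasis of a human prostate carcinoma. All cells were starved for 6 to 12 h in medium lacking both serum and calcium before recombinant asporin (ASPN), a matrix protein secreted by stromal cells, was added at 100 ng/mL. RNA was sequenced at 0 h (2 libraries), 12 h (3 libraries) and 24 h (3 libraries) to find transcripts whose abundance changed. The medium without calcium is thus shared by every library, and no library kept in it for 12 or 24 h without ASPN was analysed here, so ASPN and time in the medium cannot be told apart in any comparison.

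Calcium is kept scarce in the cytosol and plentiful in the lumen of the endoplasmic reticulum (ER). SERCA pumps (ATP2A genes) load the ER, the plasma membrane pump encoded by ATP2B1 exports calcium, and the secretory pathway pump encoded by ATP2C1 loads the Golgi. Inositol trisphosphate receptors (ITPR genes) release the store after phospholipase C has been activated, for example by ErbB receptors. STIM proteins sense the emptied store and open ORAI channels in the plasma membrane, the route called store-operated entry. TRPV6 is a constitutively active, calcium-selective channel of transporting epithelia that is known for its expression in prostate cancer.

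The libraries held 73406825 to 96962135 counts, and levels are given as CPM, the share of a library's counts after TMM normalization. With 3 counts as the limit, a gene at 0 could have had 0.0310 to 0.0413 CPM by counting error alone. The 8 prostate luminal markers reported here, including KLK3 and FOLH1, were all present, with a summed level of 4404 to 4479 CPM at 0 h, 4843 to 4901 CPM at 12 h and 4889 to 5048 CPM at 24 h. The summed leukocyte markers stayed at or under 0.248 CPM, and DCN, PECAM1 and CDH5, which mark fibroblasts and endothelium, had at most 5 counts per library. Other fibroblast genes were present, COL1A1 at 1389 to 1826 counts, LUM at 86 to 161, PDGFRB at 51 to 80 and COL3A1 at 35 to 67, and COL1A1 made up most of a fibroblast sum of 21.2 to 23.8 CPM. VWF made up almost all of an endothelial sum that went from 14.8 to 17.3 CPM at 0 h to 11.2 to 13.3 CPM at 24 h, and its part in the results was not tested. Because these are bulk libraries of a single line, fewer cells with a transcript and less of it per cell cannot be told apart.

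Between 0 and 24 h transcripts of these pumps and channels moved in both directions. ATP2A2, ATP2B1, ITPR1 and TRPV6 fell, ORAI1 and ITPR3 rose, and STIM1, STIM2, ATP2A3 and ATP2C1 did not pass (edgeR quasi-likelihood test, adjusted p of at most 0.05). These 6 of 10 stand beside 16.3% of all tested genes that passed in the same comparison, 7.82% higher and 8.49% lower. The shares over all genes are not matched for abundance. Of the 21071 tested genes 13464 averaged 100 or more normalized counts, and a small change passes less easily at few counts. Apart from ATP2A3, the described genes had at least 1063 counts in every library. At 12 h, 4 of 10 passed (ATP2B1, ATP2A2 and ATP2C1 lower, ITPR3 higher), beside 11.6% of all genes (4.85% higher and 6.75% lower). Without 0 h replicate 1 the count was 1. Leaving out single libraries also moved the count of all genes, from 2443 to between 624 and 2761. Between 12 and 24 h the only gene of the 10 that passed was ATP2A2, beside 2.72% of all genes (1.12% higher and 1.61% lower), and without 12 h replicate 3 or any one of the 24 h libraries none did. No gene of the 10 changed by as much as 1.5-fold with an adjusted p of at most 0.05 in the 3 comparisons, where 1.05%, 2.45% and 0.18% of all genes did. By DESeq2 that number was also 0, and at an unadjusted p under 0.05 by edgeR 7, 7 and 4 of the 10 passed, beside 23.5%, 27.3% and 13.6% of all genes. The median log2 change of the 10 genes was -0.095 at 12 h and -0.19 at 24 h against 0 h, and -0.033 between 24 and 12 h, where the medians of all genes were -0.00069, -0.0031 and 0.0035. The libraries of the compared groups did not overlap for 7, 6 and 6 of the 10, beside 36.9%, 43.2% and 19.6% of all genes. The 3 comparisons share libraries in pairs, so they are not independent of each other. The 10 genes were chosen with earlier results of these data known, so their shares beside those of all genes are a description only.

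**Figure D1:**
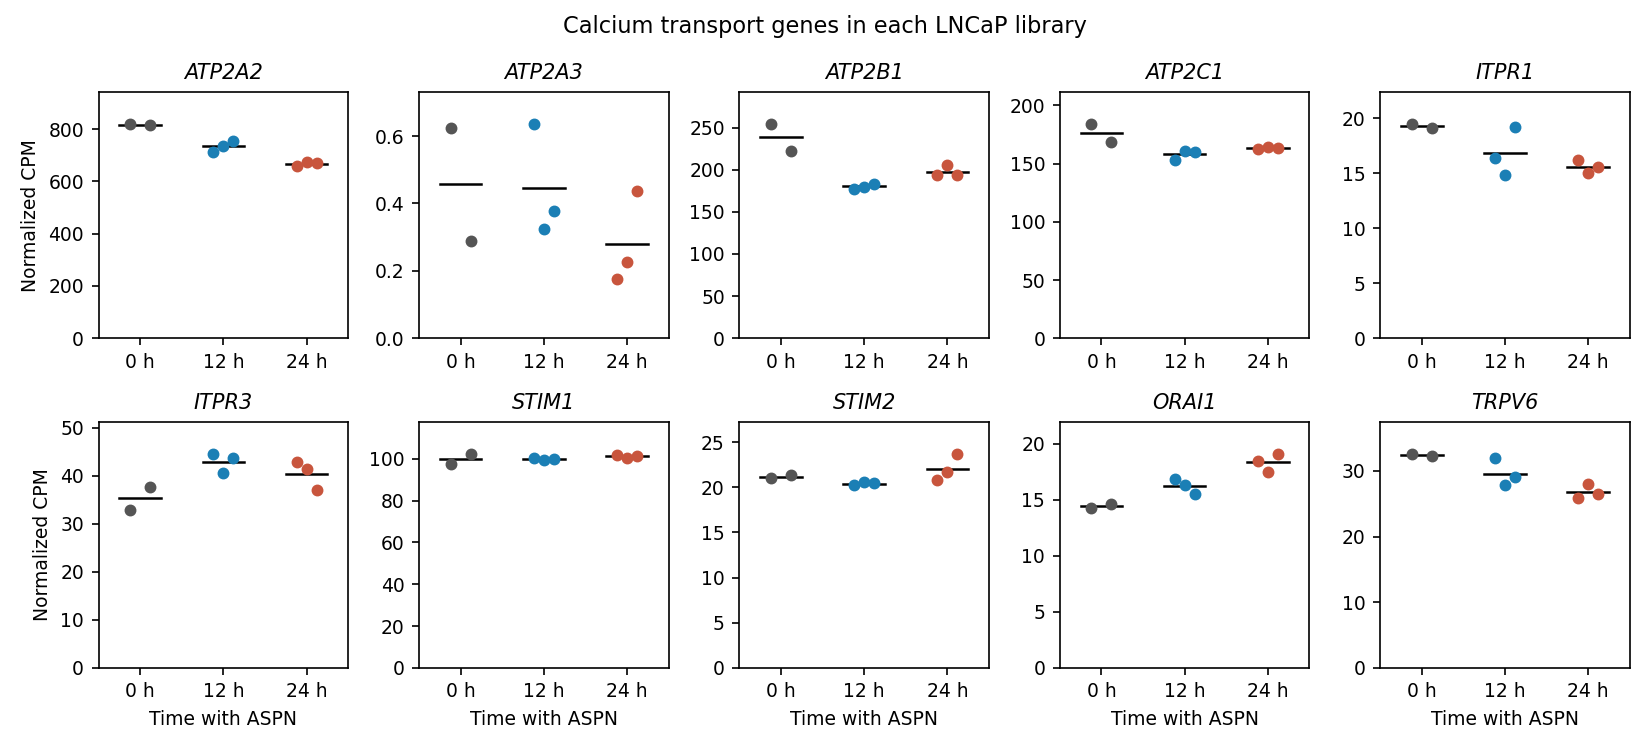
Normalized CPM (y axis, from 0) of each calcium transport gene in every LNCaP library (points) at 0, 12 and 24 h with ASPN (x axis), with the group mean as a line. ATP2A2 steps down from 817.8 to 735 to 669 CPM with no overlap of the groups, ORAI1 steps up from 14.4 to 16.3 to 18.4 CPM, and STIM1 stays near 100 CPM.

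ATP2A2 encodes SERCA2, the housekeeping pump that returns cytosolic calcium to the ER, and it was the most abundant of the 10 transcripts. The gene (ENSG00000174437.18) lies on chromosome 12, 110280756 to 110351093 of GRCh38. Its level was 819 and 816 CPM in the 2 libraries at 0 h, 713, 735 and 756 CPM at 12 h, and 661, 676 and 669 CPM at 24 h. Each group lay wholly below the one before it, and the highest 24 h library was under the lowest 12 h library. ATP2A2 fell by 0.29 on the log2 scale between 0 and 24 h (SE 0.041, adjusted p 3.01e-06 by edgeR), a change of -18.2% with a 95% interval from -22.8% to -13.4%. It fell by 0.15 between 0 and 12 h (SE 0.041, adjusted p 0.0105 by edgeR) and by 0.14 between 12 and 24 h (SE 0.037, adjusted p 0.0359 by edgeR). The change at 24 h passed under all 13 alternatives, whereas the 12 h change did not pass without 0 h replicate 1 or when only the compared time points were fitted.

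The promoter window of ATP2A2 is shown because this transcript had the smallest p of the 10 at 24 h and because elements of the ER stress response were among the motifs searched. The ER stress response element was searched as CCAAT and CCACG with 9 bases between them, on both strands of the 250 bases before each RefSeq start, and was in none of the 15 windows of the 8 genes with a window and in 0.0740% of all 35116 windows. The window before the canonical ATP2A2 start, chr12:110280997-110281246 on the plus strand, holds CCAAT 63 bases before the start. The 5 letters that follow after 9 bases are CCACA, 1 letter from the searched CCACG. This was noticed after the exact search. With 1 difference allowed in CCACG, 1 of the 15 windows and 0.945% of all windows had such a pair. The 30 bases around the pair, at chr12:110281179-110281208, are given first with CCAAT and CCACA in capitals, followed by the part of the window outside annotated ATP2A2 exons, chr12:110280997-110281115, with GGGCGG in capitals.
ATP2A2 pair: ctcggCCAATgagcggcgtCCACAtgccgc
ATP2A2 upstream: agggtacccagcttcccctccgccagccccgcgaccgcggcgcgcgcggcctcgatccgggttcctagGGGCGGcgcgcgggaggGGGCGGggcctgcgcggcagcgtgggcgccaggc
The letters GGGCGG, in the GC box bound by SP factors, occurred in 10 of the 15 windows and in 42.6% of all windows. CCAAT alone was in 4 of 15 and 32.0%. Windows of the same gene can overlap, as for STIM1, so the 15 are not separate. Their GC share ran from 41.6% to 80.8%, beside a median of 58% over all windows, and the motif shares were not matched for it. A match is a description of these letters and not a factor's site.

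ATP2A3, which encodes SERCA3, a pump of blood and some epithelial cells, was close to absent. It had 16 to 55 counts per library, at 0.624 and 0.289 CPM at 0 h, 0.635, 0.325 and 0.378 CPM at 12 h, and 0.176, 0.227 and 0.436 CPM at 24 h. The groups overlapped in every comparison. The log2 change at 24 h was -0.74 (SE 0.44, adjusted p 0.299 by edgeR), and its 95% interval ran from -68.1% to 12.0%, so neither a loss nor a small gain can be read from these counts. Per exon length, ATP2A3 stood at 0.00111 of ATP2A2 at 0 h, 0.00122 at 12 h and 0.000833 at 24 h. The remaining SERCA gene, ATP2A1 of skeletal muscle, had a log2 change of 0.072 at 24 h (adjusted p 0.882 by edgeR).

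ATP2B1 encodes PMCA1, the ubiquitous pump that exports calcium through the plasma membrane. The gene (ENSG00000070961.16) lies on chromosome 12, 89588049 to 89709300. Its level was 254 and 223 CPM at 0 h, 178, 180 and 183 CPM at 12 h, and 194, 205 and 194 CPM at 24 h. Both later groups lay below both 0 h libraries, and the 24 h libraries lay above the 12 h libraries. ATP2B1 fell by 0.40 on the log2 scale at 12 h (SE 0.049, adjusted p 9.90e-07 by edgeR), a change of -24.4% and the largest log2 change of the 10 genes among those that passed. At 24 h the change against 0 h was -17.0% (log2 -0.27, SE 0.049, adjusted p 0.000137 by edgeR). The return of 0.13 between 12 and 24 h had an adjusted p of 0.106 by edgeR and passed when the 2 time points were fitted alone. ATP2B4, which encodes the related pump PMCA4, had a log2 change of 0.053 at 24 h (adjusted p 0.540 by edgeR). The window before the canonical ATP2B1 start, chr12:89708839-89709088 on the minus strand, is shown because ATP2B1 had the smallest p at 12 h. It overlaps exons of the antisense transcript ATP2B1-AS1. It holds GGGCGG on both strands (capitals, CCGCCC being its reverse complement) and neither CCAAT nor a stress element.
ATP2B1 upstream: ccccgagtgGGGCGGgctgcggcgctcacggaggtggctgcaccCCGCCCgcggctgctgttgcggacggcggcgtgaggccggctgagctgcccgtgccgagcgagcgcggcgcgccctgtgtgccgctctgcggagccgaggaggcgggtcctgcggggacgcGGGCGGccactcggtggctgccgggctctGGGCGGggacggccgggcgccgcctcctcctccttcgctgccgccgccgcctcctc

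ATP2C1 encodes SPCA1, which pumps calcium and manganese into the Golgi. Its level was 184 and 169 CPM at 0 h, 153, 161 and 160 CPM at 12 h, and 162, 165 and 163 CPM at 24 h. The 12 h and 24 h libraries were all below the 0 h libraries. ATP2C1 fell by 0.16 on the log2 scale at 12 h (SE 0.046, adjusted p 0.0193 by edgeR), a call lost in 4 of 13 alternatives, among them leaving out 0 h replicate 1 (adjusted p up to 0.434). At 24 h the log2 difference was -0.11 (adjusted p 0.102 by edgeR). Its paralog ATP2C2, which encodes SPCA2 of secretory epithelia, fell from 63.1 and 56.7 CPM at 0 h to 42.9, 45.1 and 40.4 CPM at 24 h (log2 -0.48, SE 0.059, adjusted p 2.80e-07 by edgeR). ATP2C2 shares 26.2% of its exon bases with the antisense ATP2C2-AS1, which had 266 counts over all libraries. ATP2C2 was the single gene of the 8 tested among other pumps and exchangers that passed at 12 h or at 24 h against 0 h. Of all genes, 11.6% passed at 12 h and 16.3% at 24 h.

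ITPR1 and ITPR3 encode the type 1 and type 3 inositol trisphosphate receptors, the channels that release ER calcium, and their transcripts differed in direction. ITPR1 (ENSG00000150995.21, chromosome 3, 4493345 to 4847506) was at 19.4 and 19.1 CPM at 0 h, 16.4, 14.8 and 19.2 CPM at 12 h, and 16.2, 15.0 and 15.6 CPM at 24 h. All 24 h libraries lay below both 0 h libraries, while 12 h replicate 3 lay between them. ITPR1 fell by 0.31 on the log2 scale at 24 h (SE 0.083, adjusted p 0.00851 by edgeR), a change of -19.2%. Without 0 h replicate 1 its adjusted p was 0.0960. At 12 h the log2 difference was -0.20 (adjusted p 0.122 by edgeR).

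ITPR3 (ENSG00000096433.11, chromosome 6, 33620365 to 33696574) was at 32.8 and 37.7 CPM at 0 h, 44.6, 40.6 and 43.7 CPM at 12 h, and 42.8, 41.4 and 37.1 CPM at 24 h. The 12 h libraries were all above 0 h, and 24 h replicate 3 lay between the 0 h libraries. ITPR3 rose by 0.29 on the log2 scale at 12 h (SE 0.066, adjusted p 0.00371 by edgeR), a gain of 21.9%, and by 0.20 at 24 h (SE 0.066, adjusted p 0.0352 by edgeR). Both calls were lost without 0 h replicate 1, with adjusted p values of up to 0.262 at 12 h and 0.574 at 24 h, and the 24 h call was also lost without 24 h replicate 1 or 2. ITPR3 shares 10.4% of its exon bases with UQCC2 on the opposite strand, whose log2 changes were 0.051 at 12 h and 0.033 at 24 h (adjusted p 0.612 and 0.749 by edgeR). The third receptor gene, ITPR2, had a log2 change of 0.10 at 24 h (adjusted p 0.644 by edgeR).

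In counts per exon base the ratio of ITPR3 to ITPR1 was 5.49 and 6.42 in the 2 libraries at 0 h, ran from 7.41 to 8.90 over the 3 libraries at 12 h, and ran from 7.76 to 8.97 over those at 24 h. Every library with ASPN exceeded both 0 h libraries. The height of the ratio depends on annotated exon length, 32.1 kb for ITPR1 against 9.87 kb for ITPR3. Without lengths, mean levels at 0 h were 19.3 CPM for ITPR1 and 35.3 CPM for ITPR3. The change of the ratio over time does not depend on the lengths. The log2 ratio was 0.49 higher at 12 h and 0.50 higher at 24 h than at 0 h, each with a two-sided exact permutation p of 0.2 (n = 3 against 2), the smallest this design allows, and 0.45 after Benjamini-Hochberg adjustment over the 9 ratio tests. Between 12 and 24 h the log2 ratio differed by 0.011 (exact permutation p 0.8). A ratio within a library does not depend on the scaling between libraries. The ITPR1 promoter window is shown as one with none of the 7 searched motifs, on the plus strand at chr3:4493098-4493344, overlapping exons of the divergent transcript ITPR1-DT.
ITPR1 upstream: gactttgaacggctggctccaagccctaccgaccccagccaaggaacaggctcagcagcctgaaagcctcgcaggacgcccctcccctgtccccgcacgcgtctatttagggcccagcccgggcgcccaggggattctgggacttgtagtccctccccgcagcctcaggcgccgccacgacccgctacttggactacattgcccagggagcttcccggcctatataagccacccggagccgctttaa

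**Figure D2:**
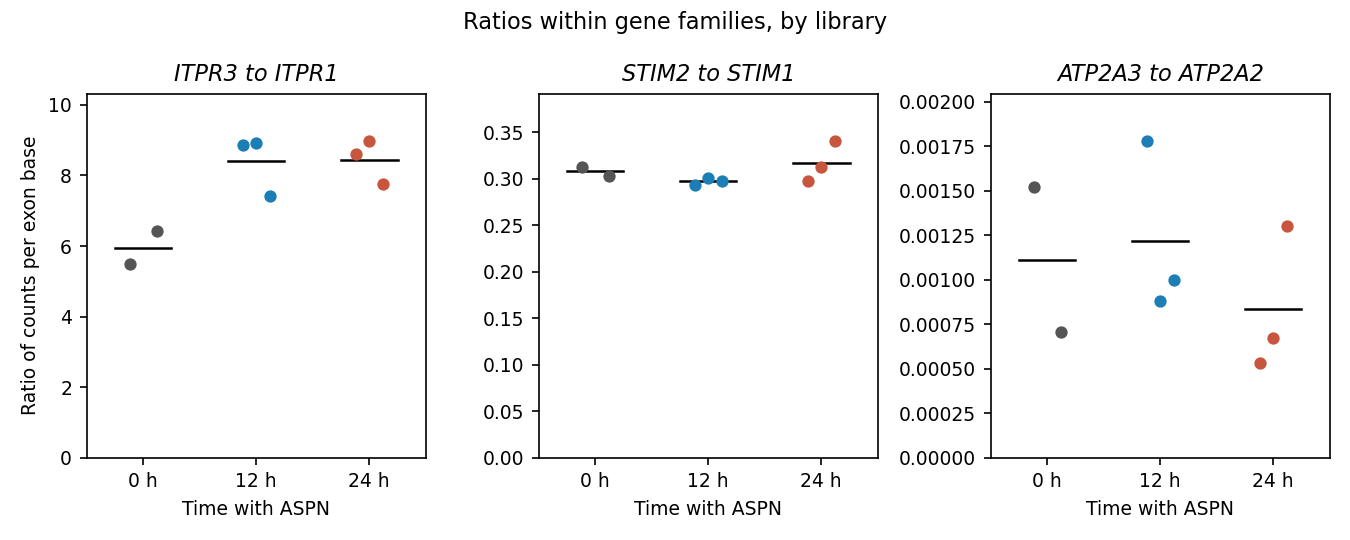
Ratio of counts per exon base (y axis, from 0) between members of the same gene family in each library (points), by time with ASPN (x axis). Lines are group means. The height of a ratio depends on annotated exon length, 32.1 kb for ITPR1 against 9.87 kb for ITPR3. The ITPR3 to ITPR1 ratio averages 5.96 at 0 h and 8.39 and 8.44 later, the STIM2 to STIM1 ratio stays between 0.293 and 0.341, and ATP2A3 is at most 0.00178 of ATP2A2.

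STIM1 and STIM2 encode the ER membrane proteins that sense luminal calcium, STIM2 responding to smaller losses. STIM1 was at 97.6 and 102 CPM at 0 h, 100, 99.4 and 99.9 CPM at 12 h, and 102, 101 and 101 CPM at 24 h. Its libraries thus stayed between 97.6 and 102 CPM at all times. Its log2 change was -0.0013 at 12 h and 0.018 at 24 h (adjusted p 0.991 and 0.859 by edgeR), and the 95% interval at 24 h ran from -5.12% to 8.10%. STIM2 was at 21.0 and 21.3 CPM at 0 h, 20.2, 20.6 and 20.4 CPM at 12 h, and 20.9, 21.7 and 23.7 CPM at 24 h. Its 24 h libraries spanned both 0 h libraries, and its log2 change of 0.059 had an adjusted p of 0.648 by edgeR, with a 95% interval from -5.42% to 14.8%. Per exon length, STIM2 stood at 0.308 ± 0.0073 of STIM1 at 0 h (SD, n = 2), 0.297 ± 0.0040 at 12 h (SD, n = 3) and 0.317 ± 0.022 at 24 h (SD, n = 3).

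ORAI1 encodes the pore of the store-operated channel, which STIM1 opens. The gene (ENSG00000276045.3) lies on chromosome 12, 121626550 to 121642677. Its level was 14.3 and 14.6 CPM at 0 h, 16.9, 16.4 and 15.5 CPM at 12 h, and 18.5, 17.5 and 19.1 CPM at 24 h. The groups did not overlap in any of the 3 comparisons, and each lay above the one before. ORAI1 rose by 0.35 on the log2 scale at 24 h (SE 0.074, adjusted p 0.000919 by edgeR), a gain of 27.1% with a 95% interval from 14.5% to 41.1%, and it passed under all 13 alternatives. The differences of 0.17 at 12 h against 0 h and 0.18 at 24 h against 12 h had adjusted p values of 0.148 and 0.166 by edgeR. Its paralogs ORAI2 and ORAI3 had log2 changes of -0.060 and 0.071 at 24 h (adjusted p 0.525 and 0.679 by edgeR). A noncoding transcript on the same strand covers 52.9% of the exon bases of ORAI3, so its count is uncertain.

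TRPV6 encodes the epithelial calcium entry channel. The gene (ENSG00000165125.22) lies on chromosome 7, 142871208 to 142885745. Its level was 32.6 and 32.3 CPM at 0 h, 31.9, 27.8 and 29.1 CPM at 12 h, and 25.8, 28.0 and 26.5 CPM at 24 h. The 0 h libraries were the highest and nearly equal, the 24 h libraries were all below them, and the 12 h and 24 h groups overlapped. TRPV6 fell by 0.28 on the log2 scale at 24 h (SE 0.064, adjusted p 0.00223 by edgeR), a change of -17.5% with a 95% interval from -24.7% to -9.65%, and it passed under all 13 alternatives. At 12 h the log2 difference was -0.13 (adjusted p 0.201 by edgeR). The near copy TRPV5 matched 416 of 10433 transcript bases at 96.2% identity and had 62 counts over all libraries, where TRPV6 had 1944 to 2874 in each. The TRPV6 window, chr7:142885746-142885995 on the minus strand, is shown because it was the only one of the 15 with both CCAAT (as ATTGG, 153 bases before the start) and AGAACA (as TGTTCT, 250 bases before it). AGAACA was in 3 of the 15 windows and in 12.4% of all windows.
TRPV6 upstream: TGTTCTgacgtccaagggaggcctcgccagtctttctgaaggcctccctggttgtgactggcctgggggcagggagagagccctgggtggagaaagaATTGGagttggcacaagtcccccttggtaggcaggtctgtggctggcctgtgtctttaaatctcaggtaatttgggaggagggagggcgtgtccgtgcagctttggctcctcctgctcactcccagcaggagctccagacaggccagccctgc
The remaining motifs, ATTGG and CCACG with 1 base between them (the second form of the stress element), TGATGNAA (of ATF4 and CHOP) and TGACGTCA (of CREB and ATF factors), were in 0 of the 15 windows and in 0.0513%, 3.14% and 1.65% of all windows. Sequences and starts were from RefSeq on GRCh38.p14.

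**Figure D3:**
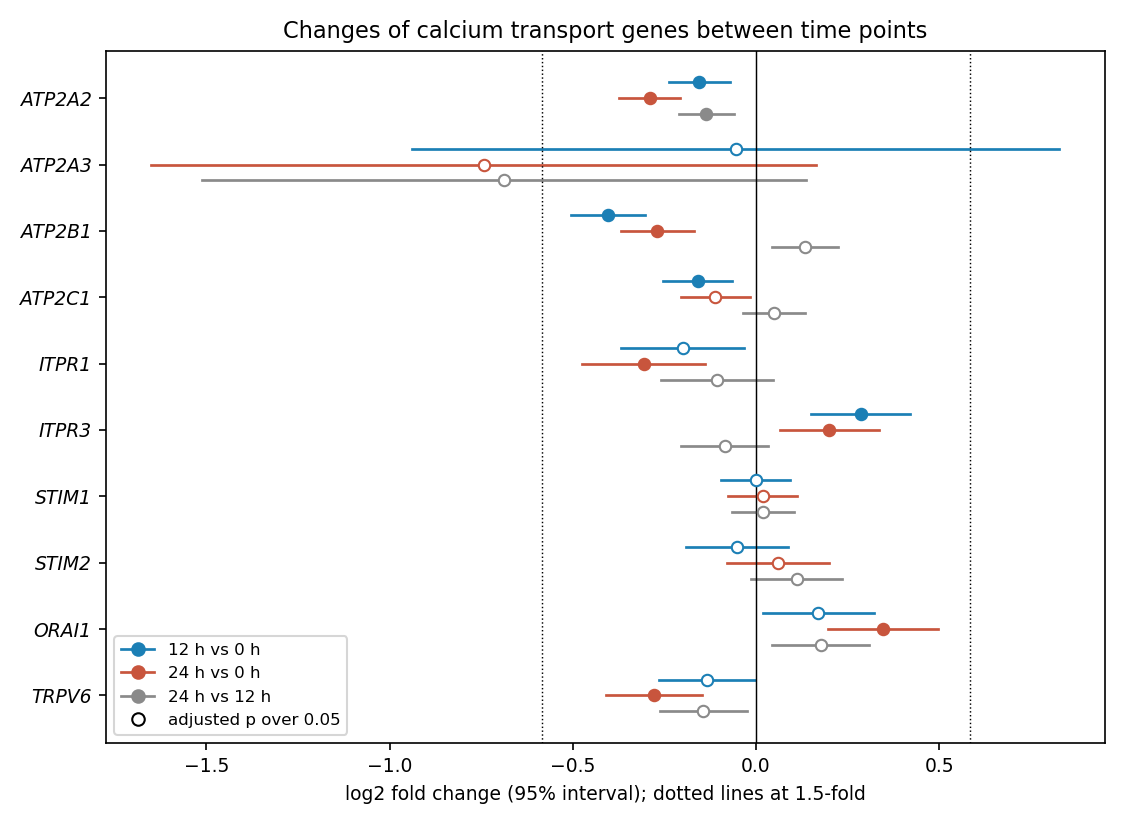
Log2 fold change (x axis) of each calcium transport gene (y axis) in the 3 comparisons, with 95% intervals from the edgeR fit, filled where the adjusted p was at most 0.05. All filled points lie between -0.40 and 0.35, inside the dotted lines at 1.5-fold, and the interval of ATP2A3 is the widest.

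Levels of different genes were compared per kb of annotated exon, counting each exon base of any transcript once, so genes with many annotated exons come out lower. ATP2A2 stood highest at 59.5 ± 0.17 CPM per kb at 0 h (SD, n = 2), followed by ATP2B1 at 25.0 ± 2.3 and ATP2C1 at 20.7 ± 1.3. These pumps, but not the pump gene ATP2A3, led the order. STIM1 followed at 8.31 ± 0.29, ORAI1 at 5.08 ± 0.087 and ITPR3 at 3.57 ± 0.35. TRPV6 at 2.73 ± 0.021, STIM2 at 2.56 ± 0.028, ITPR1 at 0.601 ± 0.0070 and ATP2A3 at 0.0662 ± 0.034 closed it. No neighbours in that order overlapped at 0 h. At 12 h ATP2B1 and ATP2C1, at 18.9 and 18.6 CPM per kb, overlapped, as did TRPV6 and STIM2 at 2.49 and 2.47. At 24 h STIM2 (2.67 ± 0.18, SD, n = 3) lay above TRPV6 (2.25 ± 0.094, SD, n = 3) without overlap, the only pair whose order differed from 0 h. This order depends on the exon lengths, since in CPM TRPV6 stayed above STIM2 at 24 h (means 26.8 and 22.1). ORAI1 rose to 6.46 ± 0.28 CPM per kb at 24 h (SD, n = 3), still below STIM1 at 8.41 ± 0.057.

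**Figure D4:**
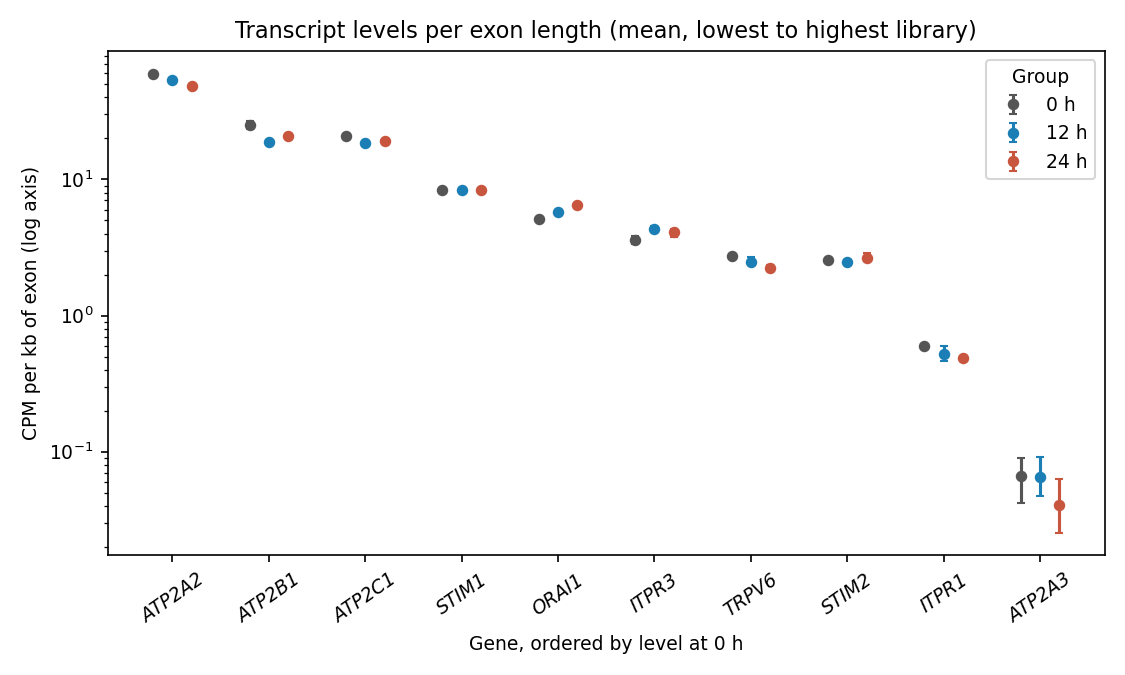
CPM per kb of exon (y axis, log scale) of each gene (x axis, ordered by level at 0 h), as the group mean with a bar from the lowest to the highest library. The order runs from ATP2A2 at 59.5 to ATP2A3 at 0.0662 CPM per kb at 0 h, and STIM2 and TRPV6 change places by 24 h.

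The rest of the calcium machinery was followed in 9 lists of 152 genes in the table, of which 118 passed the filter on low counts. These lists too were chosen with earlier results of these data known, and the all-gene shares are not matched to them for abundance. The counts per list below are therefore a description only. At 24 h against 0 h 32 of the 118 passed (17 higher and 15 lower, with a median log2 change of 0.016), beside 16.3% of all genes. At 12 h 23 passed (7 higher and 16 lower, median -0.014), beside 11.6%, and between 12 and 24 h 11 did (6 higher and 5 lower, median 0.018), beside 2.72%. Without 0 h replicate 1 these counts were 18 at 24 h and 8 at 12 h. With single libraries left out, 1597 to 4047 of all genes passed at 24 h and 624 to 2761 at 12 h. Among 12 tested ER lumen calcium binders and SERCA regulators 7 fell at 24 h, all that passed, with a median log2 change of -0.16, where 8.49% of all genes were lower and the median was -0.0031. They were the calcium-binding chaperones CALR, CANX and HSP90B1, the EF-hand proteins CALU and RCN1, and the redox proteins ERP44, which binds the type 1 inositol trisphosphate receptor, and TMX1, which regulates SERCA2. CALU fell from 263 and 242 CPM at 0 h to 177, 186 and 192 CPM at 24 h (log2 -0.45, SE 0.047, adjusted p 1.80e-08 by edgeR). At 12 h the same 7 were lower and RCN3, a further EF-hand protein, was higher (log2 0.27, adjusted p 0.0180 by edgeR). Of all genes, 6.75% were lower and 4.85% higher at 12 h. ERP44 fell by 0.56 on the log2 scale at 24 h (SE 0.054, adjusted p 3.41e-09 by edgeR).

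Of 12 tested partners of store-operated entry, 4 fell at 24 h, again all that passed, with a median log2 change of -0.12, beside the same 8.49% of all genes. They were SARAF, which ends STIM1 activation, STIMATE and ESYT1, proteins of the contacts between ER and plasma membrane, and SELENOK, a selenoprotein of the ER needed for calcium flux in immune cells. SELENOK fell from 76.2 and 70.6 CPM at 0 h to 53.6, 56.1 and 56.7 CPM at 12 h and 44.9, 49.2 and 47.6 CPM at 24 h. Each group lay below the one before. Its log2 change of -0.64 at 24 h (SE 0.054, adjusted p 2.50e-10 by edgeR) exceeded 1.5-fold. ESYT1 fell by 0.28 on the log2 scale at 24 h (SE 0.044, adjusted p 1.33e-05 by edgeR). STIMATE had a log2 change of -0.53 at 24 h (SE 0.17, adjusted p 0.0335 by edgeR). STIMATE-MUSTN1, on the same strand, covers 86.3% of the exon bases of STIMATE, so the STIMATE count is uncertain.

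Of 33 tested calmodulin, phospholipase C and effector genes, 10 passed at 24 h and all 10 rose, with a median log2 change of 0.059, where 7.82% of all genes were higher. At 12 h 6 passed, beside 11.6% of all genes (4.85% higher and 6.75% lower). Of these 6, 3 were higher (CAMK2B, PLCB3 and PLCG1) and 3 lower (CAMK2N1, PPP3CB and PPP3R1). Among those at 24 h were the kinase genes CAMK2B, CAMKK1 and CAMKK2, the phospholipase genes PLCB3, PLCD3 and PLCG1, and the calcineurin regulators RCAN2 and RCAN3. PLCB3 rose from 14.7 and 14.5 CPM at 0 h to 21.0, 19.9 and 21.4 CPM at 12 h and 20.4, 20.4 and 22.4 CPM at 24 h (log2 0.53 at 24 h, SE 0.072, adjusted p 1.76e-06 by edgeR). CAMK2B, a subunit gene of calcium/calmodulin-dependent kinase II, rose by 0.51 at 24 h (SE 0.064, adjusted p 4.19e-07 by edgeR). CAMK2B shares 20.0% of its exon bases with YKT6 on the other strand, whose own log2 change was -0.20 (adjusted p 0.00287 by edgeR). RCAN2, named here after its values were seen, was the only gene of the lists besides SELENOK that passed the adjusted p with a change of at least 1.5-fold, with a log2 change of 0.63 at 24 h (SE 0.22, adjusted p 0.0431 by edgeR).

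Of 12 other TRP channel genes tested, TRPM4 and TRPM8 fell at 24 h and MCOLN2, an endolysosomal channel, rose. These stand beside 8.49% of all genes lower and 7.82% higher. TRPM8, the cold receptor that is androgen-responsive in prostate, went from 11.7 and 12.4 CPM at 0 h to 8.26, 7.77 and 9.71 CPM at 24 h, with 10.1, 11.4 and 12.4 CPM at 12 h. Its log2 change was -0.49 at 24 h against 0 h and -0.41 against 12 h (adjusted p 0.000404 and 0.00716 by edgeR), and its 24 h libraries were the lowest. TRPM4, a calcium-activated sodium channel, fell by 0.31 at 24 h (SE 0.047, adjusted p 1.10e-05 by edgeR). Of 5 tested genes of epithelial calcium transport around TRPV6, the vitamin D receptor gene VDR and the immunophilin gene FKBP4 rose at 24 h, by 0.36 (SE 0.077, adjusted p 0.000864 by edgeR) and 0.43 (SE 0.045, adjusted p 1.38e-08 by edgeR). NEDD4, a ubiquitin ligase, fell at 12 h with a log2 change of -0.39 (adjusted p 0.00697 by edgeR). Of all genes, 7.82% were higher at 24 h and 6.75% lower at 12 h.

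Of 13 tested voltage-gated channel genes 3 rose at 24 h, beside 7.82% of all genes. CACNA1H, a T-type channel gene, was higher by 0.52 on the log2 scale (SE 0.087, adjusted p 4.50e-05 by edgeR), CACNB3 by 0.30 (SE 0.075, adjusted p 0.00503 by edgeR), and CACNA1D also passed. Of 12 mitochondrial uptake genes 2 passed at 24 h, beside 16.3% of all genes, a similar share. LETM1, an ion exchanger of the inner membrane, rose by 0.22 (adjusted p 0.00138 by edgeR). MCUR1, a regulator of the calcium uniporter, fell with a log2 change of -0.28 (adjusted p 0.000149 by edgeR). Of the 11 tested genes of other ER release channels and their partners none passed in any of the 3 comparisons by edgeR, with 2, 2 and 3 at an unadjusted p under 0.05, beside 23.5%, 27.3% and 13.6% of all genes.

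**Figure D5:**
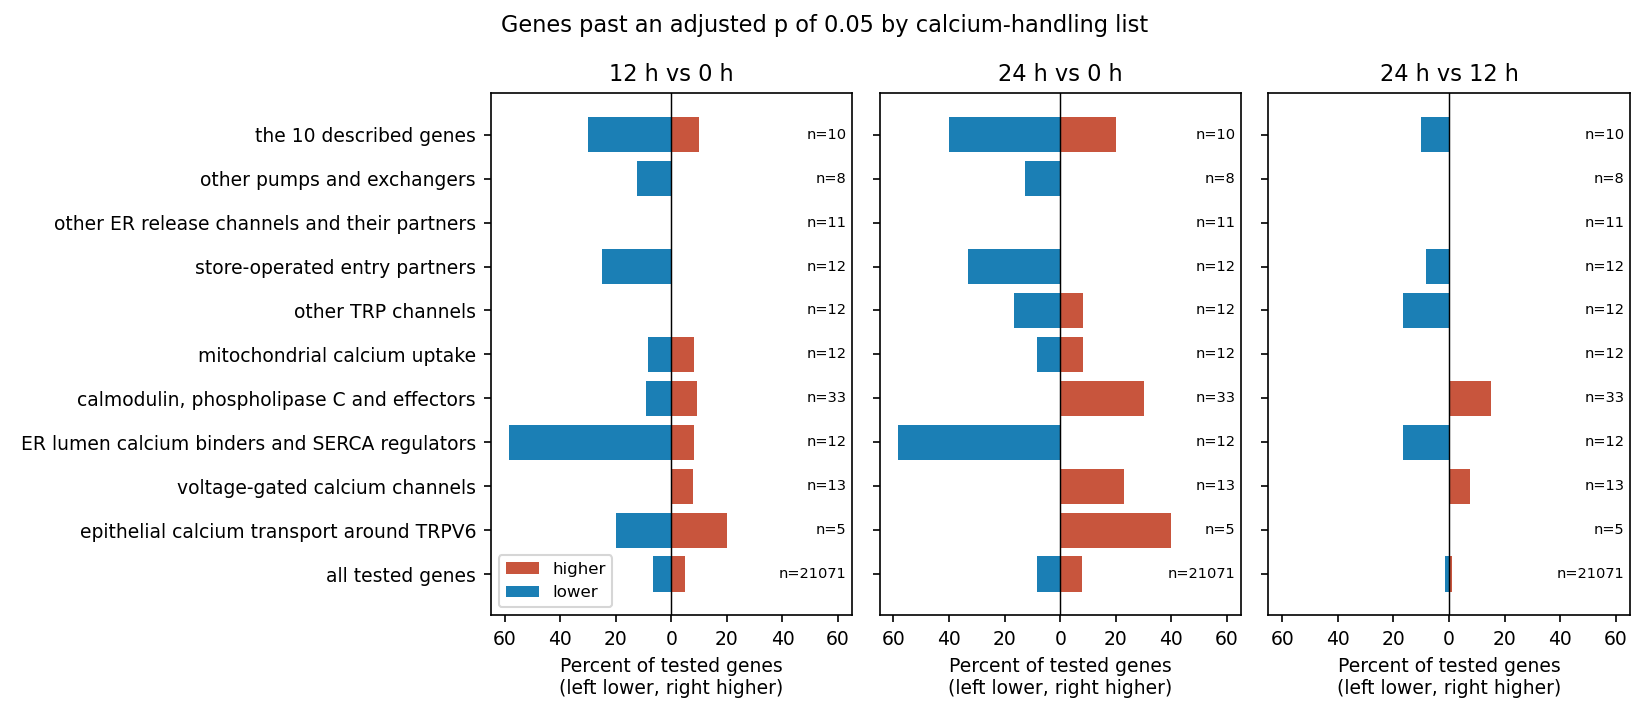
Percent of tested genes (x axis, lower to the left and higher to the right) past an adjusted p of 0.05 in each calcium-handling list (y axis, with the number tested), for the 3 comparisons. At 24 h against 0 h the calmodulin and phospholipase list has 10 of 33 genes past the threshold, all higher, and the ER lumen list has 7 of 12, all lower.

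The genes whose profiles over the 8 libraries lay nearest to that of ATP2A2, out of 11583 protein-coding genes averaging 100 or more normalized counts, were SLC25A25, PDE4DIP, SURF4, ARFGEF2 and GOLGA3, with root mean square differences of centred log2 CPM of 0.0174, 0.0208, 0.0221, 0.0235 and 0.0239. SURF4, a cargo receptor of the early secretory pathway, went from 499 and 490 CPM at 0 h to 441, 443 and 443 CPM at 12 h and 396, 411 and 405 CPM at 24 h. SLC25A25 encodes a calcium-regulated mitochondrial carrier, GOLGA3 a Golgi matrix protein and ARFGEF2 an exchange factor for ARF proteins. PDE4DIP has near-identical pseudogene copies, of which PDE4DIPP2 matches 45.2% of its transcript at 99.3% identity, so its count is uncertain. These 5 were picked for their likeness, so their values are a description.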

How the data were processed

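Poly(A) RNA libraries of LNCaP cells were sequenced as 150 bp read pairs. The authors removed adapters (Cutadapt), aligned to GRCh38 (STAR) and counted per GENCODE gene (featureCounts), leaving out a time-0 replicate that failed quality control. The deposited values are raw counts. Strand and multi-mapping settings are not given in the sources used here, so overlapping genes can share reads. The second 0 h column carries a number that no 0 h label has and was used as an unnumbered library. Replicates are called biological in the labels. The authors' methods describe cells plated in replicate wells and do not say whether these came from separate cultures. The p values therefore measure the spread among these libraries, which may be that between wells. They differed by more than sampling noise (chi-square per degree of freedom 5.32 to 15.2).

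Counts were tested with edgeR 4.0.16 in R 4.3.3 (quasi-likelihood F test, robust, TMM, filterByExpr, a coefficient per time point, all 8 libraries, Benjamini-Hochberg over 21071 genes). Genes passed at an adjusted p of 0.05 and were called at 1.5-fold as well. SE values derive from the fold change and F. Exon lengths were taken from GENCODE 44, whereas the authors name an earlier release for their annotation. Coordinates equal those of GENCODE 44 for all 30996 of the 36474 genes that carry its versioned identifiers. The other genes were not compared. On simulated counts (20456 genes, 24 h against 0 h) 60.9% of changes of 0.5 log2, 68.3% of 1 and 78.9% of 1.5 passed, with 6 unchanged genes. The members and lists were chosen with earlier results of these data known. Named list genes have, per list, the 2 smallest p values at 24 h against 0 h among genes that passed in any comparison. Beyond this rule, ITPR2, ORAI2, ORAI3, ATP2A1 and ATP2B4 were named as family members, and genes behind the list counts after their values were seen. A pair of luminal markers and a list gene are not reported here by name, and the markers are left out of their sum. Alternatives were RLE scaling, other filters, DESeq2 1.42.0, fits to only the compared groups, a replicate block and leaving out each library.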

Additional observations from a re-analysis of the deposited data

How the results depend on the processing

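The groups hold 2 or 3 libraries, so single libraries weighed heavily, above all 0 h replicate 1. The changes of ATP2A2, ATP2B1, ORAI1 and TRPV6 between 24 and 0 h and of ATP2B1 between 12 and 0 h kept their direction and passed in all 13 alternatives. Over all alternatives and the 10 described genes, 364 of 397 values kept direction and call, 15 calls were lost, 4 were gained and 14 values reversed. Most of the 397 belong to changes that did not pass in the main fit, where no call can be lost. The lost calls were of ATP2A2, ATP2C1 and ITPR3 at 12 h, ITPR1 and ITPR3 at 24 h, and ATP2A2 between 12 and 24 h.

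When only the compared time points were fitted, 2 of the 10 passed at 12 h and 2 between 24 and 12 h. The shares of all genes under these fits are not given here, so these counts are not read as particular to the 10 genes. With genes averaging 100 or more normalized counts, 140 genes were called at 12 h and 322 at 24 h against 0 h. Leaving out each library gave, for the 10 genes, 1 to 4 at 12 h, 4 to 7 at 24 h and 0 to 1 between 24 and 12 h. For the calcium lists it gave 8 to 28, 18 to 34 and 3 to 12. For all genes past the adjusted p it gave 624 to 2761, 1597 to 4047 and 222 to 730, and for those called 78 to 300, 265 to 567 and 16 to 46. The causes were not tested.

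Reversed values were close to 0 or rest on few counts. The STIM1 log2 change at 12 h was 0.0043 with RLE, 0.0080 with no filter, 0.0078 with the stricter filter, 0.0048 by DESeq2, and -0.037 to 0.045 without a library. At 24 h it was -0.022 to 0.059 without a library (-0.022 without 0 h replicate 1). ATP2A3 at 12 h ranged from -0.48 to 0.62 without a library. The same ranges were -0.19 to 0.00036 for ITPR1 between 24 and 12 h, -0.015 to 0.093 for CACNB3 at 12 h, and -0.028 to 0.041 for PLCB3 between 24 and 12 h.

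Libraries at 12 and 24 h share replicate numbers, but the deviations of same-numbered pairs correlated at 0.0286 to 0.119 and 4 of 6 libraries correlated best with their own number, a hint from the data and not the design. With the number as a replicate block, 2 of the 10 genes (ATP2A2 and ATP2B1) and 865 of all genes passed between 24 and 12 h. No paired analysis was made against 0 h. Only 1 of the 0 h columns carries a replicate number that a 0 h label has, which leaves a single shared number by the labels.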
